A study of Mus musculus with 30 samples.

Results

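Transcript levels of 9 growth-control genes, Myc, Mycn, Mycl, Max, Ccnd1, Ccnd2, Ccnd3, Cdk4 and Cdk6, were followed through the isolation and culture of mouse brain endothelial cells (ECs). The genes were taken by name, as classic growth targets, from 21820 protein-coding genes quantified in 14 RNA-seq libraries, and all 9 passed the low-count filter in every comparison. Accessible chromatin around them was read in 10 ATAC-seq libraries. The question behind the comparisons was how brain ECs differ in culture from ECs taken straight from the brain, and whether stabilized beta-catenin alters the cultured cells.

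All cells came from adult male mice. Acute ECs (2 RNA libraries, 2 ATAC libraries) were GFP-positive cells sorted from Tie2-GFP brain after papain dissociation, and the GFP-negative cells of the same sorts gave 2 RNA libraries. Their RNA was amplified before sequencing as single reads of 75 cycles. The study formed its adult brain EC data by combining new cerebrum data with cerebellum data published earlier. WT cultures (6 RNA, 6 ATAC) were wells of puromycin-selected brain ECs grown for 8 days in medium with serum, EGF, VEGF, FGF, IGF-1 and hydrocortisone. Stabilized cultures (4 RNA, 2 ATAC) were grown alike from Ctnnb1flex3/+;Pdgfb-CreER;Tie2-GFP mice that had received 4-hydroxytamoxifen as pups, so that Cre, active in ECs, removed exon 3 of 1 Ctnnb1 allele, and those cells still carried 1 unaltered allele. By the study's account this recombination reaches most but not all ECs. The Ctnnb1flex3/+;Tie2-GFP controls among the WT cultures had received the same drug and carried no Cre. Cultures were made by a papain procedure (method A) or by Dounce homogenization with collagenase and dispase (method B). WT replicates 1 and 2 were C57BL/6J cells of method A read for 36 cycles, WT replicates 3 and 4 were Ctnnb1flex3/+;Tie2-GFP cells of method B read for 150 cycles at another facility, and WT replicates 5 and 6 were cells of the same genotype and method read for 36 cycles. Stabilized replicates 1 and 2 were of method A and replicates 3 and 4 of method B, all read for 36 cycles. This assignment follows the study's Methods text. The legend of its first figure instead gives method A to 4 of the 6 WT RNA cultures, which would include replicates 5 and 6. The sources used here do not settle that conflict, and every comparison of methods below rests on the Methods text. In RNA, therefore, stabilized cells differed from their WT controls in method A also in strain and in the flex3 and Tie2-GFP alleles, which cannot be told apart there from the effect of stabilization. Brains of several mice were pooled for a culture and replicates of 1 experiment are wells, so p-values measure the spread between wells and, where several experiments enter a group, between experiments. Culture, amplification and read type changed together between acute and cultured libraries and cannot be told apart.

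Libraries held 24284843 to 94686456 assigned reads. Summed TPM (transcript abundance corrected for length) of 7 endothelial markers was 2795 to 2923 in acute ECs, 745 to 2010 in WT cultures, 986 to 3451 in stabilized cultures and 6.98 to 19.3 in GFP-negative cells. Protein-coding genes took 36.2% to 64.9% of TPM in 12 libraries and 94.8% and 94.7% in WT replicates 3 and 4, so that TPM compares genes within a library but is not on 1 scale between libraries. Levels of genes below are therefore normalised read counts between libraries, and TPM only between genes of a library. These counts (CPM) are relative to library size and scaled over the 14 libraries by TMM. Sums over cell-type markers are given in TPM and carry this difference in scale. A gene was called when edgeR's quasi-likelihood test gave a Benjamini-Hochberg adjusted p below 0.05, its change was more than 2-fold, and it reached 5 TPM in every library of the higher group. The counts do not separate fewer cells of a type from less RNA per cell. Ctnnb1 itself stood at 2994 and 2091 CPM in acute ECs, 753 to 1699 in WT cultures and 1080 to 1333 in stabilized cultures, and since these counts do not read the excision of an exon they do not check the genotype. The study itself reported RNA reads that skip the excised exon in every stabilized culture and in no WT culture.

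Myc, Mycn and Mycl encode related transcription factors that bind E-boxes as heterodimers with Max and that raise genes of ribosome production, metabolism and cell-cycle entry. D-type cyclins (Ccnd1, Ccnd2, Ccnd3) are made in response to mitogens and beta-catenin signaling, and they activate Cdk4 and Cdk6, which phosphorylate Rb and so release E2F factors. Adult brain ECs are almost entirely quiescent, whereas ECs in growth medium divide, and Myc and Ccnd1 are textbook targets of beta-catenin with TCF/LEF factors.

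Myc lies at chr15:61985391-61990374 (+ strand), Mycn at chr12:12936093-12941914 (-), Mycl at chr4:122995652-123002485 (+) and Max at chr12:76937269-76962201 (-), in build GRCm38. Ccnd1 lies at chr7:144929931-144939925 (-), Ccnd2 at chr6:127125162-127152193 (-), Ccnd3 at chr17:47505051-47599691 (+), Cdk4 at chr10:127063534-127067920 (+) and Cdk6 at chr5:3341485-3531008 (+). The RefSeq promoter table for GRCm38.p6 held entries (250 bases before to 50 after a start) for 6 of the 9 genes, namely Mycn, Mycl, Max, Ccnd3, Cdk4 and Cdk6, and had none for Myc, Ccnd1 and Ccnd2. Searched on both strands, the Myc/Max E-box CACGTG occurred in 7.15% of 32851 promoter entries, and the TCF/LEF motif CTTTGAT in 3.73%. The Cdk4 promoter held 4 E-box letter matches and 1 TCF/LEF match, those of Max and Cdk6 held 1 E-box each, and those of Mycn and Mycl held none of the 4 motifs searched. The promoters of the Myc family's obligate partner Max and of Cdk4 are printed because both genes passed the test between acute and cultured cells and both hold a peak of open chromatin in every ATAC library. Capitals mark E-box matches and, in Cdk4, also the TCF/LEF match.
Cdk4 promoter, chr10:127063285-127063584, + strand: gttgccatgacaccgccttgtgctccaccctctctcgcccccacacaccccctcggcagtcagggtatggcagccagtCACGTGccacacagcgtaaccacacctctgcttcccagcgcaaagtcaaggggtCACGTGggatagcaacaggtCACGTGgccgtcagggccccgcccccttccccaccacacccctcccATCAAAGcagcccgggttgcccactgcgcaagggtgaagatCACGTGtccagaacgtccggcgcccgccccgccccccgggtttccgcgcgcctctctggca
Max promoter, chr12:76962199-76962498, - strand: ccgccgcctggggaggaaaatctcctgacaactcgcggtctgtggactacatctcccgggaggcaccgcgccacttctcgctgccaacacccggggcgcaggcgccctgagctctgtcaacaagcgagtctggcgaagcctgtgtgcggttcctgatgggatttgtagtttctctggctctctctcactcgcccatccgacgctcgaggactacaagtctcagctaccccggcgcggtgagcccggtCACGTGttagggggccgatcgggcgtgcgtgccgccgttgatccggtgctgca

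In acute ECs, Myc was the least abundant of its family, and in culture it was the most abundant. Myc stood at 1.15 and 2.51 CPM in the 2 acute libraries, at 7.52 (lowest), 31.2 (median) and 36.7 (highest) in 6 WT cultures, and at 28.0, 28.4, 27.1 and 25.4 in 4 stabilized cultures. No culture overlapped with the acute libraries, and the 2 WT cultures of method A were the lowest of the cultures. GFP-negative cells had 2.23 and 4.61 CPM, overlapping with acute ECs. WT culture exceeded acute ECs by 3.77 ± 0.82 (log2, with its SE; edgeR adjusted p = 0.0060), but Myc was not called, since it stood below 5 TPM (2.81 and 4.57) in both WT cultures of method A. Without the TPM minimum it was called higher, and without acute replicate 1 its adjusted p was 0.0562.

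Mycn and Mycl, the paralogs best known from neural and lung development, went the other way between acute ECs and cultures. Mycn measured 78.8 and 5.64 CPM in the 2 acute libraries, against 0.462 (lowest), 3.99 (median) and 5.46 (highest) in WT cultures and 4.61, 3.89, 0.993 and 1.18 in stabilized cultures. All cultures lay below both acute libraries, but the highest WT culture came close to the lower of them, and the acute replicates lay far apart. The difference was -3.72 ± 0.98 on the log2 scale (edgeR adjusted p = 0.0140) and rested on acute replicate 1: without it the value was -0.80 with an adjusted p of 0.632. Mycl measured 40.9 and 15.3 CPM in acute ECs, 2.53 (lowest), 9.03 (median) and 11.4 (highest) in WT cultures, 2.44, 2.27, 9.83 and 8.40 in stabilized cultures and 3.67 and 2.18 in GFP-negative cells. Again no culture reached the acute libraries, with a log2 difference of -1.90 ± 0.56 (edgeR adjusted p = 0.0227) that became -1.02 with an adjusted p of 0.294 without acute replicate 1. Neither paralog was called, as Mycn (13.8 and 1.70 TPM) and Mycl (4.47 and 6.28 TPM) did not hold 5 TPM in both acute libraries.

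Within a library, Myc made up 1.68% and 11.5% of the summed TPM of the 3 family members in acute ECs, 37.4% and 41.9% in GFP-negative cells, 57.6% to 83.3% in WT cultures and 78.4% to 86.0% in stabilized cultures. Mycn held 74.3% in acute replicate 1 and Mycl held 69.6% in acute replicate 2, so the 2 acute libraries differed in which paralog led. The family sum itself was small, at 9.02 and 18.6 TPM in acute ECs and 4.89 to 48.2 TPM in WT cultures.

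**Figure D1:**
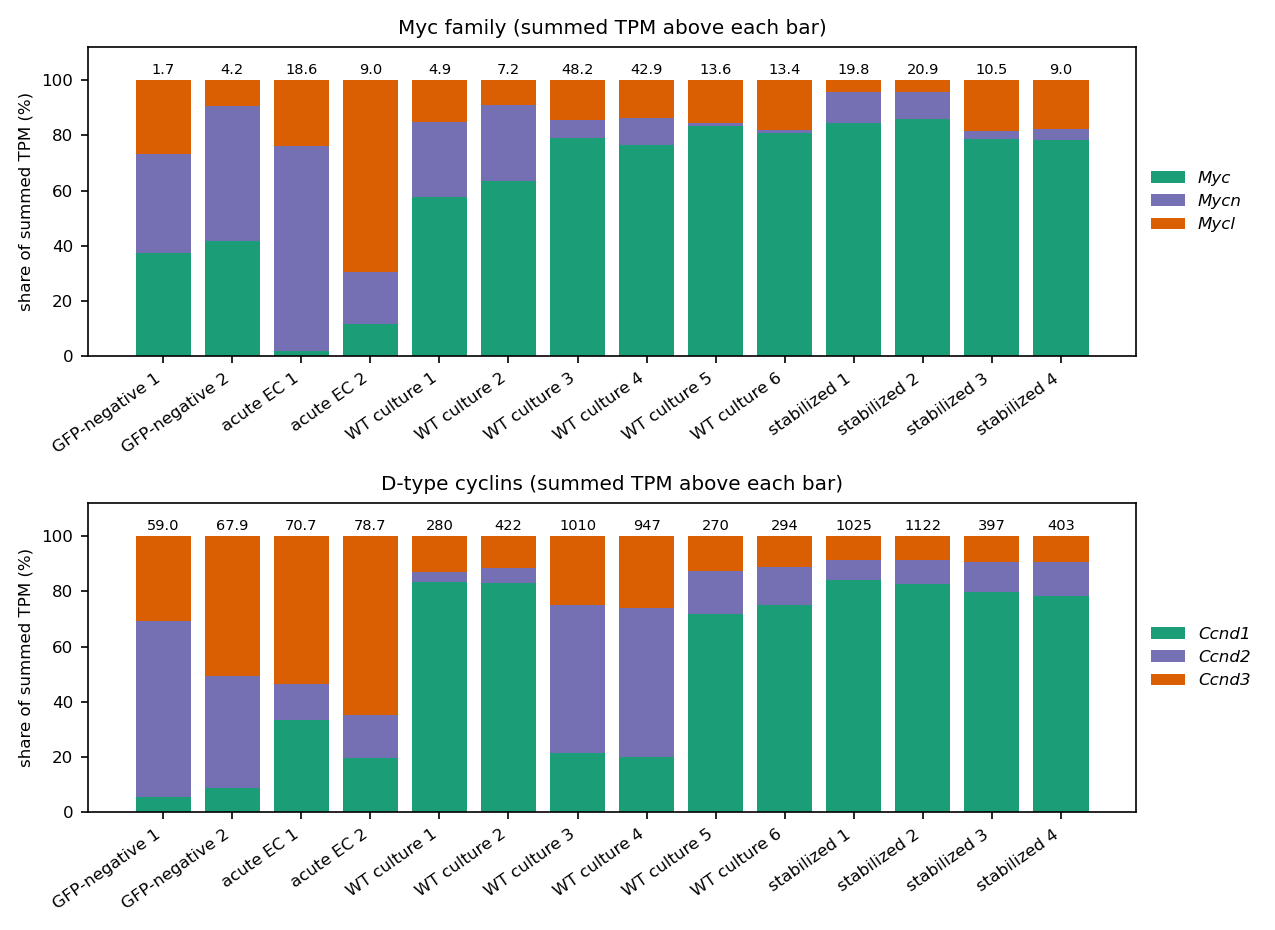
Stacked bars give the share in percent of each paralog in the summed TPM of the Myc family (upper) and of the D-type cyclins (lower) in each of 14 RNA-seq libraries, with the sum in TPM above the bar. Myc takes 57.6% or more of its family in every culture and at most 11.5% in acute ECs, and Ccnd1 takes 71.8% or more of the D-type cyclins in every culture but WT replicates 3 and 4.

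Max, the shared dimerization partner, fell in culture. It measured 221 and 144 CPM in acute ECs, 24.4 (lowest), 35.6 (median) and 53.1 (highest) in WT cultures, 49.4, 50.4, 51.1 and 51.2 in stabilized cultures and 32.6 and 40.4 in GFP-negative cells. Acute ECs thus stood above all other libraries, and GFP-negative cells lay within the range of the cultures. From acute ECs to WT culture the log2 difference for Max was -2.29 ± 0.33 (edgeR adjusted p = 0.00098), and was higher in acute ECs than in GFP-negative cells by 2.34 ± 0.39 (adjusted p = 0.0087).

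Ccnd1, the D-type cyclin most closely tied to mitogens, led the 9 genes by TPM in every culture except those read for 150 cycles. Its normalised level was 29.0 and 39.4 CPM in GFP-negative cells, 303 and 124 in acute ECs, 294 (lowest), 1042 (median) and 1478 (highest) in WT cultures, and 2582, 2524, 1688 and 1770 in stabilized cultures. WT replicates 3 and 4 (305 and 294 CPM) overlapped with acute replicate 1, whereas each of the other 8 cultures exceeded both acute libraries, and all 4 stabilized cultures exceeded all 6 WT cultures. The culture difference of 2.08 ± 0.79 was not called (edgeR adjusted p = 0.0560). With the 36-cycle WT cultures alone Ccnd1 was called higher, at 2.50 with an adjusted p of 0.0057. It was called higher in acute ECs than in GFP-negative cells (2.67 ± 0.52, adjusted p = 0.0142), 1.75 without acute replicate 1.

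Ccnd2 and Ccnd3, which share Cdk4 and Cdk6 with Ccnd1, gave less even patterns. Ccnd2 measured 205 and 212 CPM in GFP-negative cells, 118 and 114 in acute ECs, 98.2 (lowest), 318 (median) and 366 (highest) in WT cultures, and 318, 419, 346 and 390 in stabilized cultures. Every stabilized culture exceeded both acute libraries, while WT replicate 1 lay below them, and the WT difference of 1.21 ± 0.54 was not called (edgeR adjusted p = 0.0963). Ccnd3 measured 63.7 and 67.0 CPM in GFP-negative cells, 118 and 107 in acute ECs, 78.8 (lowest), 87.8 (median) and 240 (highest) in WT cultures, and 125, 120, 97.0 and 100 in stabilized cultures. WT replicates 3 and 4 and stabilized replicates 1 and 2 exceeded both acute libraries in Ccnd3, the other 6 cultures lay below both, and the difference was 0.26 ± 0.54 (adjusted p = 0.716). By TPM within a library, Ccnd3 led the D-type cyclins in acute ECs (53.6% and 64.7% of their sum) and Ccnd1 led in 8 of 10 cultures.

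Cdk4, the kinase partner of the D-type cyclins, rose in culture. It measured 52.5 and 41.5 CPM in GFP-negative cells, 52.5 and 58.9 in acute ECs, 146 (lowest), 160 (median) and 274 (highest) in WT cultures, and 127, 115, 157 and 155 in stabilized cultures. Acute and GFP-negative libraries lay close together, and all 10 cultures lay above them. The log2 fold change from acute ECs to WT culture was 1.76 ± 0.38 (edgeR adjusted p = 0.0055), and it stayed between 1.63 and 1.82 as each library was left out in turn. Cdk6, its close relative, measured 40.8 and 61.5 CPM in GFP-negative cells, 136 and 42.0 in acute ECs, 44.1 (lowest), 59.5 (median) and 152 (highest) in WT cultures, and 91.9, 116, 168 and 176 in stabilized cultures. The groups overlapped, and the culture difference of -0.11 ± 0.60 (adjusted p = 0.889) changed sign with several settings. Cdk4 made up 84.5% to 94.4% of the summed TPM of the 2 kinases in all 14 libraries.

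**Figure D2:**
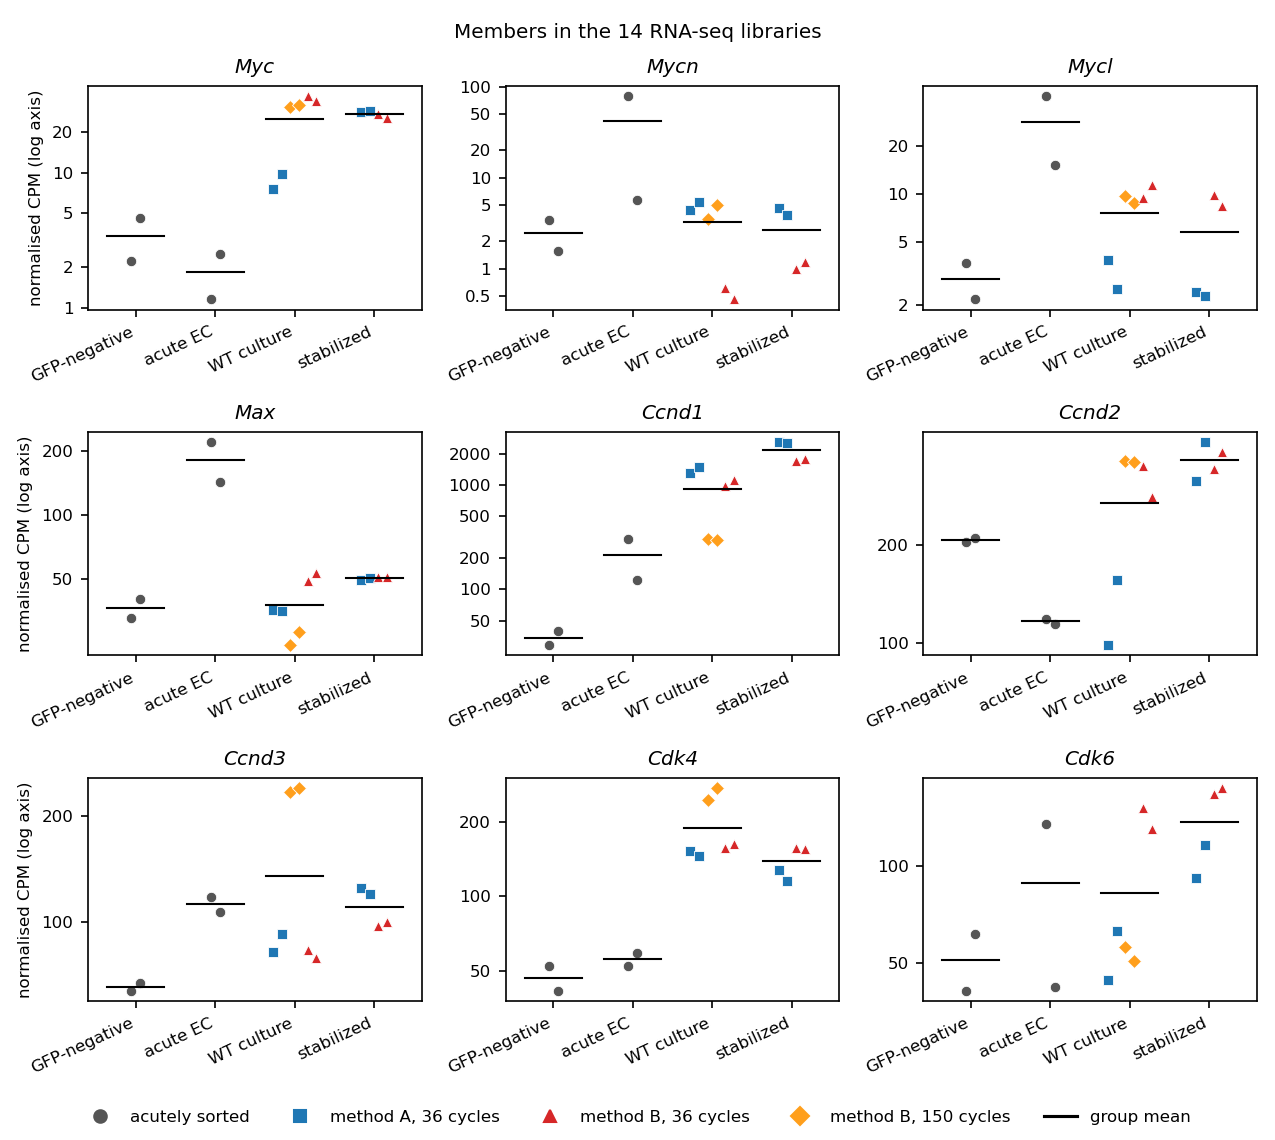
Each panel plots the normalised CPM of 1 gene on a log axis in the 14 RNA-seq libraries by group, with symbols for isolation method and read length and a bar at the group mean. Myc is at 7.52 CPM or more in every culture and at 2.51 or less in acute ECs, Max is at 53.1 or less in every culture and at 144 or more in acute ECs, and the WT cultures read for 150 cycles stand apart for Ccnd1 (294 and 305 CPM) and Ccnd3 (233 and 240 CPM).

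Of the 9 genes, 1 was called higher (Cdk4) and 1 lower (Max) in WT culture than in acute ECs, where 13.5% of 13784 genes were called higher and 10.2% lower. Over the 9 genes the log2 differences had a median of 0.26, and over all genes 0.10. Without the TPM minimum 2 were higher (Myc, Cdk4) and 3 lower (Mycn, Mycl, Max), against 22.9% and 20.5% of all genes. The higher count also depended on the cultures used, with Ccnd1 and Cdk4 called from method A alone and Myc, Ccnd2 and Cdk4 from method B alone. Over all genes, 2035 of 13401 were called higher from method A alone and 2080 of 13812 from method B alone. Markers moved between these groups as well. Summed TPM of 4 pericyte markers was 244 to 354 in acute ECs and 2.25 to 4.80 in WT cultures. That of 4 smooth muscle markers was 214 to 233 and 501 to 3068. That of 4 erythrocyte markers was 5443 to 41090 and 0 to 1.39 (Hbb-bt and Alas2 at 0 in all WT cultures). By edgeR, 4 of 4 pericyte and 4 of 4 erythrocyte markers were called lower in WT cultures. Of the 4 smooth muscle markers, 3 were called higher and 1 lower. Endothelial markers were also called lower, 4 of 7, with 0 called higher and a median log2 difference of -1.97. The share of reads from mitochondrial genes was 10.6% to 11.2% in acute ECs, 14.9% to 24.2% in GFP-negative cells, 0.67% to 1.58% in WT cultures and 1.62% to 2.58% in stabilized cultures. Their part in the levels of the 9 genes was not tested.

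Against GFP-negative cells, acute ECs had more of Max and Ccnd1 (called), and 8.30% of 15102 genes were called higher and 7.56% lower. The median log2 difference, acute minus GFP-negative, was 0.82 over the 9 genes and -0.06 over all genes. Mycl was higher in acute ECs by 3.29 ± 0.75 (edgeR adjusted p = 0.0225) but was not called. Without the TPM minimum it was called, where 9.93% and 19.7% of genes were called higher and lower. It was also called with the minimum applied to TPM rescaled over protein-coding genes. Mycn, at 4.10 ± 1.28 (adjusted p = 0.0559), again rested on acute replicate 1, without which its value was 1.06 (adjusted p = 0.427). Ccnd2 was below its GFP-negative level in both acute libraries, at -0.82 ± 0.30 (adjusted p = 0.0873). Myc (-0.89 ± 0.89), Ccnd3 (0.80 ± 0.33), Cdk4 (0.26 ± 0.38) and Cdk6 (0.82 ± 0.61) were not called either. GFP-negative cells are a mixture, in which summed markers reached 172 to 179 TPM for neurons, 404 to 1194 for astrocytes and 658 to 2433 for oligodendrocytes. Smooth muscle markers summed to 3585 to 5266 TPM in GFP-negative cells against 214 to 233 in acute ECs, and pericyte markers to 222 to 446 against 244 to 354, and their part in these differences was not tested.

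The stabilized cultures share the acute ECs with the comparison above, so their own values are given side by side. Myc rose by 3.88 ± 0.38 (edgeR adjusted p = 0.00042), Ccnd1 by 3.31 ± 0.48 (0.0017), Ccnd2 by 1.65 ± 0.20 (0.00082) and Cdk4 by 1.30 ± 0.20 (0.0022), Max fell by 1.87 (SE 0.20, adjusted p = 0.00054), and these 5 calls stood against 15.1% of 13888 genes called higher and 11.0% lower. The median over the 9 genes was 0.61 and over all genes 0.04. Mycn (-4.01 ± 1.03) and Mycl (-2.31 ± 0.71) were not called. Without the TPM minimum both were called lower, where 24.5% of genes were called higher and 23.1% lower. Without acute replicate 1 their values were -1.09 and -1.43. Cdk6 at 0.61 ± 0.50 was not called, but without acute replicate 1, which held 136 of its CPM against 42.0, it was called higher at 1.70 (adjusted p = 0.0246).

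The 6 WT cultures come from 3 experiments of 2 wells, and the genes differed between these more than within them. All 9 had an adjusted p below 0.05 in edgeR's test among the experiments, as did 11714 of 13050 genes. Of the 9, 7 also differed more than 2-fold between the lowest and the highest experiment, the exceptions being Max (log2 range 0.89) and Cdk4 (0.83). Both criteria together called 58.5% of the 13050 genes, so that the 9 genes share a difference found across the transcriptome. Myc averaged 8.65 ± 1.59 CPM (SD, n = 2) in method A, 31.2 ± 0.72 in method B read for 150 cycles and 35.2 ± 2.07 in method B read for 36 cycles. The log2 difference was 1.96 ± 0.13 between the 36-cycle experiments of B and A (adjusted p = 3.03e-07) and -0.10 ± 0.12 between the read lengths of method B (adjusted p = 0.470). Method A was 1 experiment with cells of another strain, so method, strain and day of culture cannot be told apart. Mycl, too, was lowest in method A, at 3.20 ± 0.94, 9.21 ± 0.72 and 10.4 ± 1.42 CPM.

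Ccnd1, Ccnd3 and Cdk4 instead stood apart in the 150-cycle experiment. Ccnd1 averaged 1383 ± 134 CPM in method A, 1042 ± 95 in method B at 36 cycles and 300 ± 8.06 in method B at 150 cycles, the last 2 differing by -1.72 ± 0.11 on the log2 scale (edgeR adjusted p = 9.94e-08). Ccnd3 was high where Ccnd1 was low, with 87.4 ± 7.34, 80.9 ± 3.02 and 236.5 ± 4.75 CPM, and Cdk4 averaged 149 ± 4.95, 160 ± 3.53 and 259 ± 21.1 CPM in the same order. With an offset for transcript length, the log2 range among the experiments was 0.30 for Cdk4 (edgeR adjusted p = 0.0643). It was 1.54 for Ccnd1 and 1.77 for Ccnd3 with that offset, so the difference in Cdk4 depended on this setting. Max differed among all 3, at 35.6 ± 0.14, 51.0 ± 2.96 and 26.2 ± 2.56 CPM. Mycn was low in 1 experiment alone, at 0.537 ± 0.106 CPM in method B at 36 cycles against 4.94 ± 0.75 and 4.30 ± 1.03 in the others. Cdk6 was high in that same experiment, at 140.9 ± 15.1 against 53.5 ± 13.3 and 53.3 ± 4.00 CPM, and Ccnd2 was low in method A, at 127.5 ± 41.4 against 364.5 ± 1.75 and 317.5 ± 49.7. Read length, facility and day of culture moved together in the 150-cycle experiment and cannot be told apart.

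The 150-cycle libraries also differed in which transcripts Salmon credited. A short annotated Ccnd2 transcript of 627 bases took 60.7% and 60.8% of Ccnd2's TPM in WT replicates 3 and 4 and 0% to 14.6% in the other 12 libraries, while the long one of 6330 bases took 13.7% and 13.6% there and 83.1% to 99.4% in the other 8 cultures. A Cdk4 transcript of 2053 bases took 83.4% and 77.5% of Cdk4's TPM in the same 2 libraries and at most 23.0% elsewhere. Average effective length of Ccnd2 was 1154 and 1149 bases in WT replicates 3 and 4 and 6288 and 5333 bases in replicates 5 and 6, and the protein-coding share of TPM was 94.8% and 94.7% against 40.6% and 43.5%. Ccnd2 stood at 541 and 511 TPM in WT replicates 3 and 4 and at 42.1 and 40.4 TPM in replicates 5 and 6, although its CPM there was 366 and 363 against 353 and 282. The TPM shares and ranks given above for Ccnd2 and Cdk4 in these 2 libraries carry this difference. Bases of Cdk6, Ccnd1, Ccnd2, Ccnd3, Cdk4 and Max are also annotated to other, partly antisense, genes, and Salmon detected the library type by itself. The type it found is not given in the sources used here, so whether strand separated reads of such stretches is unknown.

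Stabilized and WT cultures were compared in all 10 libraries and within each method. Over all cultures none of the 9 genes was called, nor was any of 12958 genes (0.00% higher and 0.00% lower). At an unadjusted p below 0.05, edgeR had 611 genes higher and 733 lower, and DESeq2 called 15 higher and 3 lower, none of them a member of the 9. Ccnd1 had the largest of the 9 values, 1.23 ± 0.46 (edgeR adjusted p = 0.442), followed by Cdk6 at 0.73 ± 0.38 (0.524), and the median was 0.10 over the 9 genes and -0.04 over all genes. With the replicate number as a block, which pairs 36-cycle stabilized with 150-cycle WT wells for numbers 3 and 4, Cdk6 was called higher (1.27, adjusted p = 0.0452), Ccnd1 was at 1.65 (adjusted p = 0.0767), and 132 genes were called higher and 55 lower. With the wells of each experiment summed, edgeR called 0 genes (52 higher and 24 lower at an unadjusted p below 0.05), and Cdk6 stood at 0.73.

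Within a method each group is 2 wells of 1 experiment, so these p-values, and those of the difference between methods, measure the spread between wells only. An adjusted p below 0.05 was common at this spread. In method A, edgeR had 3757 genes higher and 3441 lower at that level among 12848. In method B it had 2498 higher and 2259 lower among 12835. Ccnd1 was higher in stabilized wells of both methods by a similar amount. In method A it stood at 2582 and 2524 CPM against 1288 and 1478, a log2 difference of 0.85 ± 0.09 (edgeR adjusted p = 0.00090, 2 against 2), and in method B at 36 cycles at 1688 and 1770 against 975 and 1109, a difference of 0.73 ± 0.07 (0.0015). The groups did not overlap in either method, both changes stayed below 2-fold and so were not called, and the difference between methods was -0.10 ± 0.12 (adjusted p = 0.503). With the experiment as a term in the edgeR fit over all cultures, Ccnd1 stood at 0.78 with an adjusted p of 0.00071. That fit had 1427 genes higher and 1320 lower at an adjusted p below 0.05, among 13457. Experiment here means method and read length, and the sources do not state that stabilized and WT wells were cultured together. Ccnd3, too, was higher by less than 2-fold in both methods, by 0.45 ± 0.08 (0.0035) and 0.28 ± 0.06 (0.0159).

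Myc differed in direction between methods. In method A the stabilized wells had 28.0 and 28.4 CPM against 7.52 and 9.78, a call of 1.65 ± 0.12 (edgeR adjusted p = 0.00053), and in method B at 36 cycles 27.1 and 25.4 against 36.7 and 33.7, or -0.43 ± 0.08 (0.0095). Stabilized wells ranged from 25.4 to 28.4 CPM over both methods, and the WT wells from 7.52 to 36.7. Ccnd2 was called in method A (1.49 ± 0.23, adjusted p = 0.0023), with 318 and 419 CPM against 98.2 and 157, and stood at 0.21 ± 0.13 in method B. The test of the difference between methods, which applied no TPM minimum, called Myc (-2.06 ± 0.15, adjusted p = 6.7e-05), Mycn (1.32 ± 0.32, 0.0085) and Ccnd2 (-1.26 ± 0.30, 0.0078), 3 of 9 genes against 15.3% of 13356. Mycn stood at only 0.13 to 2.18 TPM in these 8 libraries. Ccnd2 lost that call without WT replicate 1 (-0.98, adjusted p = 0.0166). In method A, 5.39% of genes were called higher and 0.918% lower, and in method B 1.08% and 0.280%. WT wells of method A were C57BL/6J and those of method B carried the flex3 allele, so strain, genotype and method cannot be told apart in these differences.

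**Figure D3:**
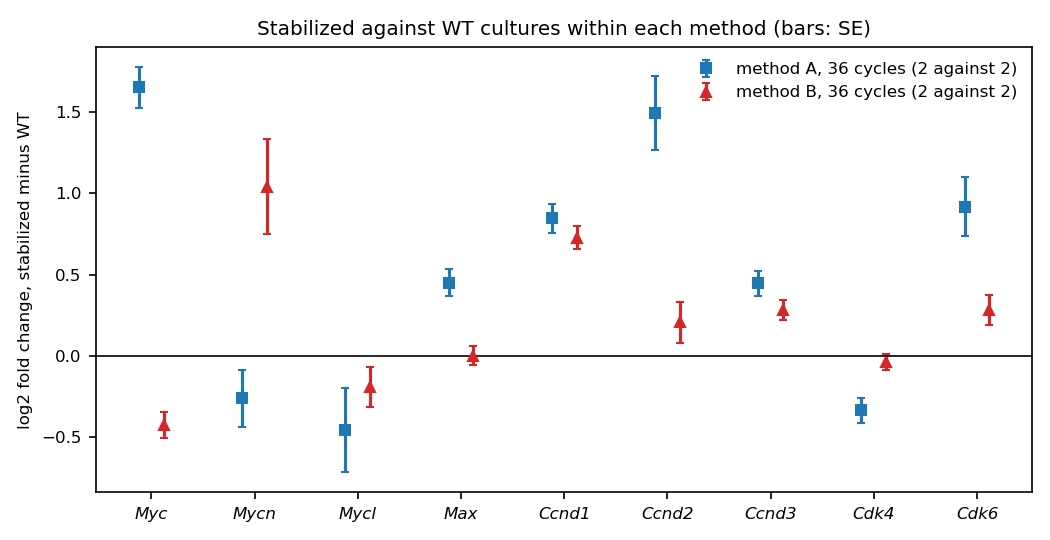
Points give the log2 fold change of stabilized minus WT cultures for each of the 9 genes within method A and within method B, both read for 36 cycles (2 libraries against 2), with bars of 1 SE. Ccnd1 lies at 0.85 and 0.73 in the methods, whereas Myc lies at 1.65 and -0.43.

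Genes around the 9 were read as fixed lists, each described by its calls and its median beside the median of all genes (0.10 in WT culture against acute ECs). Of 20 classic Myc targets, 6 rose, Cdk4 itself among them, and 0 fell, with a median of 0.97, where 13.5% of all genes rose and 10.2% fell. Odc1, the rate-limiting enzyme of polyamine synthesis, went from 21.9 and 24.1 CPM in acute ECs to 427 to 1137 in WT cultures, a rise of 5.11 ± 0.59 (edgeR adjusted p = 0.00035). Rrp9, a factor of ribosomal RNA processing, rose by 3.63 ± 0.40 (0.00028). When the fit carried an offset for transcript length, the list had 5 higher and 4 lower and a median of 0.36. In stabilized cultures against acute ECs, where 15.1% of all genes rose and 11.0% fell, 7 targets rose and 1 fell, Ncl (nucleolin) with -1.70 ± 0.43 (adjusted p = 0.0145). Of 8 tested Myc network partners, Mlx rose by 1.17 ± 0.28 and Mxi1, a Max-binding antagonist of Myc, fell by 2.27 (SE 0.30, adjusted p = 0.00067) in WT culture, and the list's median was -0.999.

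On the cyclin side, 3 of 6 tested CDK inhibitors fell in WT culture and 0 rose, with a median of -1.04, against 10.2% of all genes that fell and 13.5% that rose. Cdkn1c, which encodes the inhibitor p57, went from 69.6 and 298 CPM in acute ECs to 3.66 to 5.57 in WT cultures, a difference of -5.38 ± 0.44 (edgeR adjusted p = 8.5e-05), and Cdkn1b, which encodes p27, fell as well (-2.21 ± 0.72, adjusted p = 0.033). Acute ECs, in turn, had more of 2 of 6 inhibitors than GFP-negative cells (8.30% of all genes), Cdkn2b (6.04 ± 0.71) and Cdkn1a (2.86 ± 0.48). Of 13 Rb and E2F genes, 1 rose (Tfdp1, a DNA-binding partner of E2F, 1.67 ± 0.26) and 2 fell (Tfdp2, -1.96 ± 0.24, and E2f5, -1.87 ± 0.49), with a median of -0.24. Of 9 later cyclins and CDKs only Cdk7 was called (1.32 ± 0.28), although the list's median was 5.82, and without the TPM minimum 7 of 9 were called higher, against 22.9% of all genes. Of 14 proliferation markers 2 rose (Mcm6, a replication helicase subunit, 3.40 ± 0.53, and Tyms, thymidylate synthase, 2.41 ± 0.50), and 9 without the TPM minimum (22.9% of all genes), with a median of 2.37. In stabilized cultures against acute ECs 4 of these 14 rose, among them Top2a, a topoisomerase of dividing cells (6.25 ± 0.65).

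Most readouts of beta-catenin signaling fell in culture. Of 9 tested, 7 fell in WT culture and 1 rose, with a median of -5.99, against 10.2% and 13.5% of all genes. Spock2, a proteoglycan of brain ECs, went from 7244 and 7687 CPM in acute ECs to 1.87 to 17.4 in WT cultures, and Sp5 rose by 5.91 ± 0.72 (edgeR adjusted p = 0.00046). Of 10 tested between acute ECs and GFP-negative cells 6 were higher in ECs, with Lef1 at 486 and 539 against 5.44 and 15.6 CPM. Between stabilized and WT cultures 0 of 9 were called with edgeR, at a median of 0.92, against 2 called within method A and 0 within method B. Of 12 immediate early genes, which dissociation can induce, 4 fell in WT culture, with Jun, a subunit of AP-1, at -2.41 ± 0.40 (adjusted p = 0.0018) and the list's median at -0.26, and 6 were higher in acute ECs than in GFP-negative cells.

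For 7 of the 9 genes the 3 genes most alike in level over the 14 libraries were found among 8748 genes by Pearson's r of log2(TPM + 1). Myc was most like Pphln1 (0.990), Cnot9 (0.990) and Rnf126 (0.989), Max most like Ubn1 (0.973), and Cdk4 most like Mrpl43 (0.993). Ccnd1 was most like Rnd1 (0.985) and Akap12 (0.976), Ccnd2 like Slc35b4 (0.988), Ccnd3 like Gpr108 (0.981), and Cdk6 like Slc7a6 (0.985). Since TPM is not on 1 scale between these libraries, such r values also carry the difference in scale. On the CPM scale the same pairs gave 0.976 for Myc with Rnf126 and 0.955 for Ccnd1 with Rnd1, but 0.525 for Myc with Pphln1 and 0.592 for Cdk6 with Slc7a6. Mycn and Mycl were too low for this search.

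Each of the 9 genes had at least 1 start with open chromatin before and after culture. An ATAC peak (fold enrichment of at least 2 and -log10 q of at least 2 in the deposited calls) lay within 500 bases of a start in both acute libraries, in all 6 WT cultures and in both stabilized cultures for 8 genes, and for Ccnd1 in 5 of 6 WT cultures. For Ccnd3 this was a start 88525 bases into the gene, whereas the region at its first start, chr17:47504915-47505264, had weak peaks in both acute libraries (2.57 and 2.60) and in no culture. Fold enrichment at the Max promoter was 18.2 and 18.3 in acute ECs and 13.6 to 21.8 in WT cultures. At the Cdk4 promoter, with its 4 E-box matches, it was 10.6 and 11.3 and 8.89 to 15.6. Neither Max nor Cdk4 therefore showed ranges that separated acute from cultured cells at its promoter. The number of passing peaks per library ran from 31779 to 37384 in acute ECs, 33122 to 98732 in WT cultures and 79116 to 80034 in stabilized cultures, and the ATAC libraries of WT replicates 1 and 2 were of method A and the others of method B.

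Within the 9 genes and 50 kb to either side lay 163 regions, of which 11 were gained (a peak in all 6 WT cultures and no acute library) and 6 lost (a peak in both acute libraries and no WT culture). Over the genome 8.09% of 126224 regions were gained and 2.93% lost. Without WT replicate 2, the library with the fewest peaks, 24 of the regions around the 9 genes were gained, against 16.0% of all regions. Cdk6 had 6 gained regions of 40 and none lost, Myc had 2 of 10 gained and 1 lost, Ccnd1 had 1 of 23 gained and 2 lost, Max had 1 of 15 gained and 2 lost, and Ccnd2 had 1 of 10 gained, which covers an exon of Fgf23. Ccnd3 had 1 of 21 lost, the one at its first start, and Mycn, Mycl and Cdk4 had none of either kind in 10, 18 and 16 regions.

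The gained region downstream of Myc, chr15:62028270-62028989 at 43238 bases from its start, had fold enrichments of 7.89 and 5.17 in WT cultures of method A, 16.4 to 23.5 in those of method B and 16.2 and 16.7 in stabilized cultures. It lies outside annotated genes. Upstream of Ccnd1, chr7:144963918-144964410 was gained with 6.41 and 5.16 in method A, 12.8 to 23.2 in method B and 16.5 and 15.9 in stabilized cultures. Both regions were thus weaker in the 2 WT libraries of method A, which had 50395 and 33122 peaks against 84523 or more. Farther upstream of Ccnd1, chr7:144973404-144973878 had a peak in both acute libraries (9.61 and 8.40), in no WT culture and in both stabilized cultures (3.47 and 4.23). Of the 3703 lost regions of the genome, 20 (0.540%) had a peak in both stabilized cultures. All 11 gained regions around the 9 genes also had a peak in both stabilized cultures, as did 99.1% of the 10211 gained regions of the genome.

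Cdk6, the longest of the 9 genes (189524 bases) with 40 of the 163 regions, had 2 gained regions upstream, 3 in introns and 1 downstream. Its transcripts did not separate WT cultures from acute ECs. The region at -17139 from its start had 10.1 and 7.75 in WT cultures of method A, 17.6 to 20.8 in method B and 20.0 and 20.3 in stabilized cultures. The intronic region at 153242 had 9.04 to 22.9 in WT cultures, and the downstream region at 197544 had 5.07 to 12.1. The AP-1 motif TGANTCA occurred in 52.6% of 10207 windows of 300 bases at the summits of gained regions, in 5.91% of 3671 at lost regions and in 7.81% of promoter entries, and the TEAD motif GGAATG in 28.3%, 16.5% and 14.7%. The E-box, by contrast, occurred in 4.43% of gained windows and 3.65% of lost ones. AP-1 letters were found in 4 of the 6 gained Cdk6 windows, in both gained Myc windows and in the gained Ccnd1 window. The gained windows of Max and Ccnd2 held no AP-1 match. Among the lost windows around the 9 genes, only chr7:144982728-144983027 upstream of Ccnd1 held an AP-1 match. Windows of 3 Cdk6 regions (GRCm38, + strand) are printed to show where these letters lie, with AP-1 and TEAD matches in capitals.
Cdk6 upstream, chr5:3324258-3324557, 1 TEAD match: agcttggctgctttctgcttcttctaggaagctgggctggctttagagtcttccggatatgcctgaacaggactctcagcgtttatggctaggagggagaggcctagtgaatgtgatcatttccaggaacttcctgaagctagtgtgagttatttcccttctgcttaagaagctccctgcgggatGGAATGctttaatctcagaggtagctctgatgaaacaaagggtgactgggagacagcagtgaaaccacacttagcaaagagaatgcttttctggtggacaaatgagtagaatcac
Cdk6 intron, chr5:3494409-3494708, 1 AP-1 match: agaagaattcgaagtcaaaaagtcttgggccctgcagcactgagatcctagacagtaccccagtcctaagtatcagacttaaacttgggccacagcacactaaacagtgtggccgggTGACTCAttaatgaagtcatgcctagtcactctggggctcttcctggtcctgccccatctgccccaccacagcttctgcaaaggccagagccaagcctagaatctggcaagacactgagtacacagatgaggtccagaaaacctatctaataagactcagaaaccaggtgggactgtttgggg
Cdk6 downstream, chr5:3538821-3539120, 2 AP-1 matches: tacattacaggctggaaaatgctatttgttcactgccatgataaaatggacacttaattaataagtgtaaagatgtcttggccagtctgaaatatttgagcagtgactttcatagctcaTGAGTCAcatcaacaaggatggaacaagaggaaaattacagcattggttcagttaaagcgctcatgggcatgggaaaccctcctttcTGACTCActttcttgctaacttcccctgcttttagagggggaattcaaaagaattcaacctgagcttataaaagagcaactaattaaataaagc

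**Figure D4:**
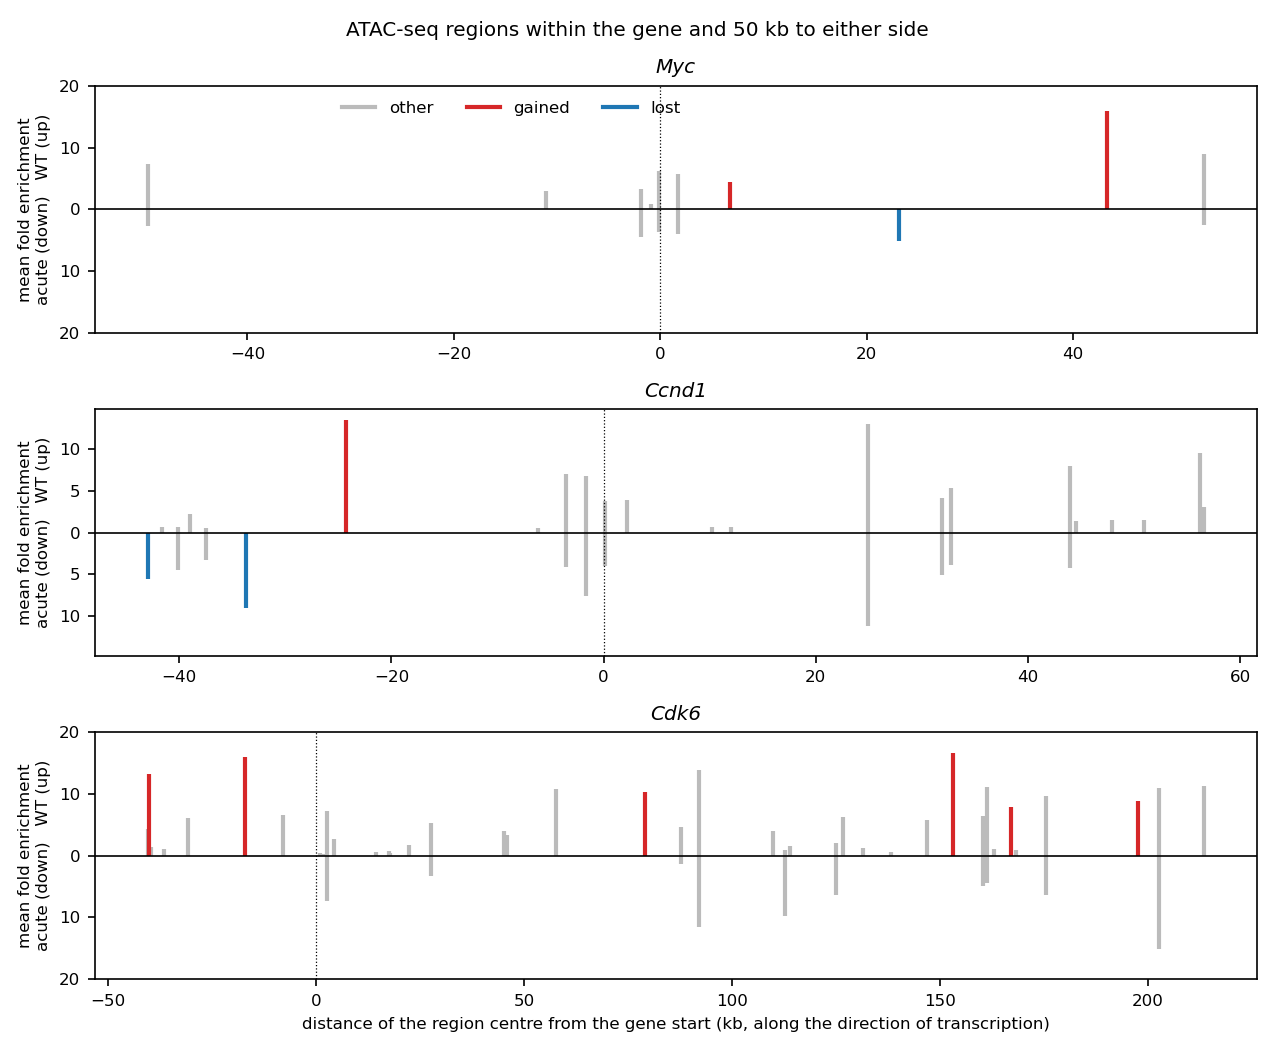
Bars give the mean fold enrichment of each ATAC region in 6 WT cultures (up) and 2 acute libraries (down), a library without a peak counting as 0, against the distance in kb of the region's centre from the start of Myc, Ccnd1 or Cdk6. Gained regions are red and lost regions blue, with 2 and 1 at Myc, 1 and 2 at Ccnd1 and 6 and 0 at Cdk6.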

How the data were processed

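Transcripts were measured in 14 RNA-seq libraries and open chromatin in 10 ATAC-seq libraries. Groups follow the sample titles and genotypes, and isolation method and read length follow the study's methods. The RNA files hold expected counts and TPM per transcript, which the authors made with Salmon 0.14.0 on GENCODE M21 transcripts after trimming libraries with overrepresented adaptors. The ATAC files hold peaks that the authors called in each library with MACS2 2.1.2 after HISAT2 2.1.0 alignment to mm10, with deposited fold enrichment (a ratio over background) and deposited -log10 q values. Cerebrum-only samples were not analysed here.

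Expected counts and TPM were summed per gene symbol, and counts were rounded. edgeR 4.0.16 (R 4.3.3) tested protein-coding genes after its low-count filter with TMM scaling and the quasi-likelihood test, adjusted over all genes tested. The steps were tested on simulated data with known changes. Genes named from the lists are, per list and comparison, the called genes with the largest change, at most 2 in each direction. The list on protein turnover is not reported here. Likeness was sought for members with 5 TPM in every library of some group, among genes with a mean of 5 TPM or more, after adding 1 to TPM and taking logs. Peaks that overlap between libraries were merged into regions. Motifs were searched in windows of 300 bases around the summit, in the genome of GENCODE M21 (GRCm38), and in RefSeq promoter entries. Limits on depth enter through the counts: with 24284843 or more assigned reads, members below 5 CPM carry the largest counting error.

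Members, lists and tests were chosen with earlier results of these data known, so their calls are described and not taken as independent support. Replicate numbers are shared between groups. For stabilized against WT cultures the deviations of same-numbered libraries correlated at 0.226, 0.273, 0.235 and 0.259 over genes. Number and method coincide there for numbers 1 to 4. Stabilized replicates 2 and 3 correlated best with the WT library of their own number, and replicates 1 and 4 did not. The numbers were thus not shown to pair wells. The fit with this block is given as an alternative where it changes a call. The alternatives were DESeq2 1.42.0, library-size scaling, an offset for transcript length, no low-count filter, no TPM minimum, the wells of each experiment summed, experiment as a term, TPM rescaled over protein-coding genes, the replicate block, single methods or read lengths, 1 fit of all groups, and leaving out each library.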

Additional observations from a re-analysis of the deposited data

Results flagged for a closer look

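The difference between stabilized and WT cultures was called unlike between isolation methods for 3 of the 9 genes, against 15.3% of 13356 genes. Stabilized minus WT was smaller in method B than in method A by 2.06 for Myc (log2 difference of differences -2.06) and by 1.26 for Ccnd2 (-1.26), and larger in method B for Mycn (1.32), each called by edgeR's interaction term at an adjusted p below 0.05. Mycn stood at only 0.13 to 2.18 TPM in the 36-cycle cultures. As libraries were left out, the value for Ccnd2 ranged from -1.63 to -0.98, which reaches below 2-fold. WT cells of method A were C57BL/6J and those of method B carried Ctnnb1flex3, so strain, genotype and method cannot be told apart.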

How the results depend on the processing

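Across 828 member values under alternative settings, 764 kept direction and call, 33 gained and 1 lost a call, and 30 reversed direction. A call here rests on adjusted p, fold change and, where applied, the TPM minimum together. A value uncalled in both fits and of the same sign counts as kept, whatever its size. Settings that change only the TPM minimum reuse the log2 values of the main fit. In WT culture against acute ECs, where 1 member was called higher, the count was 2 with DESeq2, with library-size scaling, without the TPM minimum, with rescaled TPM, with the replicate block, with 36-cycle cultures and with method A, and 3 with a transcript-length offset, with all groups in 1 fit and with method B. Over all genes these settings called from 1782 (transcript-length offset) to 3160 (no TPM minimum) higher, against 1866 in the main fit. Leaving out 1 library gave 1 to 2 members higher (with Ccnd2 added without WT replicate 1, and Ccnd1 without WT replicate 3 or 4) and 1 to 2 lower (Mycn added without acute replicate 2). Members called lower numbered 3 without the TPM minimum and 2 with rescaled TPM. Between acute and GFP-negative cells 1 member (Ccnd2) was lower with library-size scaling, against 0. For stabilized against WT cultures, 1 member was higher with the replicate block (Cdk6) and 2 in method A (Myc, Ccnd2), against 0. For stabilized against acute, members lower numbered 3 without the TPM minimum and 2 with rescaled TPM, and 1 to 2 as libraries were left out (Mycn added without acute replicate 2). Gained regions numbered 11 to 24 as libraries were left out.

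Values that reversed, with the cause not tested, were these. As libraries were left out, Cdk6 ranged from -0.76 to 0.95 (culture against acute) and from -0.39 to 1.43 (acute against GFP-negative), Myc from -0.09 to 0.21 (stabilized against WT), Ccnd3 from -0.10 to 0.04 (stabilized against acute) and Mycl from -0.04 to 0.59 (difference between methods). In WT culture against acute, Ccnd3 was -0.37 with the replicate block, -0.42 with 36-cycle cultures and -0.37 with method A, and Cdk6 was 0.11 with library-size scaling, 1.52 with the length offset (adjusted p = 0.0230, called), 0.13 with 36-cycle cultures and 0.12 with method B. Between acute and GFP-negative cells, Cdk4 was -0.11 with library-size scaling, and Cdk6 was -0.24 with the offset. Between stabilized and WT cultures, Myc was -0.18 with the offset and -0.43 in method B, Mycn was 0.28 with experiment as a term and 1.04 in method B, Ccnd2 was -1.02 with the offset, and Ccnd3 was 0.36 with experiment as a term, 0.45 in method A and 0.28 in method B. Between stabilized and acute cells, Ccnd3 was 0.09 with library-size scaling and 0.10 with the block and in method A. Between methods, Ccnd1 was 0.00 with library-size scaling.

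The replicate block raised calls between stabilized and WT cultures from 0 higher and 0 lower to 132 and 55. With wells of each experiment summed, 0 were called there (edgeR), and in WT culture against acute ECs 1274 genes were higher and 834 lower, against 1866 and 1409, with Cdk4 (adjusted p = 0.0326) and Max (0.0163) still called. In the comparisons with acute cells the libraries shared only a number (correlations of 0.004, 0.060 and -0.02). Settings chosen after seeing the data were rescaled TPM, the single methods for stabilized against acute cells, and, for the difference between methods and among WT experiments, leaving out libraries and, for the former, also DESeq2 and no count filter.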
